A study of Mus musculus with 18 samples.

Results

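GABA signalling was followed through 9 genes in the subventricular zone (SVZ) of mice carrying mutant Idh1: the GABA-B receptor genes *Gabbr1*, *Gabbr2*, *Kctd12* and *Kctd16*, the synthesis and storage genes *Gad1*, *Gad2* and *Slc32a1*, the uptake gene *Slc6a11* and the breakdown gene *Abat*. Every array probe annotated with 1 of these symbols alone was taken, which gave 17 probes of 8 genes among the 34885 probes with 1 symbol. *Kctd16* had no such probe and was not analysed here. A detection p-value per probe and array, which sets the bead signal against negative control beads, was under 0.05 on at least 9 of the 18 arrays for 14 of the 17 probes, as it was for 18460 probes overall. The genes were picked with their difference between the mutant and control mice already known, so that difference is given as a description. No p-value is given for it and nothing is read from the count of members called, while hybridisation day, sex and their interactions with genotype were tested.

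The 9 Tam-Idh1-KI mice carried Nes-CreER(T2), a tamoxifen-inducible Cre recombinase driven by the nestin promoter, and 1 conditional Idh1R132H knock-in allele, which Cre switches on under the endogenous *Idh1* promoter. The 9 controls were *Idh1*+/+ littermates with or without the Cre transgene, and both groups were c57bl6 and had received tamoxifen at 50 mg/kg for 5 days at 5 to 6 weeks of age. The conditional allele is described by the study as leaky without Cre, and dissected SVZ also holds cells in which Cre was not active. RNA of each mouse went onto 1 Illumina Mouse WG6-v2 array, 6 per group on a first hybridisation day and 3 per group on a second. The mice of the first day were 5 to 6 months old and those of the second 7 to 9 months, so day and age cannot be told apart. On the first day age also went with genotype, with 5 of 6 Tam-Idh1-KI mice at 5 months and 5 of 6 controls at 6 months. With age in months added to the fit, the genotype differences of *Gabbr1* and *Gabbr2* were both -0.39. Among first-day mice, females numbered 2 and males 4 in either group, whereas the second-day Tam-Idh1-KI mice were 3 females and the controls 1 female and 2 males.

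GABA is the main inhibitory transmitter of the adult brain. It is made from glutamate by the glutamate decarboxylases that *Gad1* and *Gad2* encode, is loaded into vesicles by the transporter encoded by *Slc32a1*, is taken up from the extracellular space by transporters that include the one encoded by *Slc6a11*, found mainly on astrocytes, and is broken down by the transaminase encoded by *Abat*. The GABA-B receptor is a G protein-coupled receptor that works as a pair, in which the *Gabbr1* product binds GABA and the *Gabbr2* product brings the pair to the cell surface and couples it to G proteins, and the *Kctd12* and *Kctd16* products bind the receptor and shape the speed of its signal. In the SVZ, GABA released by neuroblasts acts on GABA-A receptors of the stem cells and slows their division, and in the mouse hippocampus GABA-B receptors help to keep stem cells quiescent.

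Across the series the log2 signals of the arrays correlated at 0.955 to 0.995, but their mean signals ranged from 454 to 905, and 44.6% to 50.9% of the probes were detected on each. The *Idh1* probe had mean log2 intensities of 9.39 ± 0.26 and 9.74 ± 0.22 (SD, n = 9 mice per group) with and without the knock-in and lay below the control mean of its day on 9 of 9 Tam-Idh1-KI arrays. Whether this probe reads the transcript of the knock-in allele is not stated, so it does not check the genotype. All values below are log2 intensities after background correction and quantile normalization. A difference is that of the Tam-Idh1-KI minus the control mice with day and sex in the fit, followed by its standard error. Since a probe's brightness depends on its sequence, levels were not compared between probes.

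The probe that showed the most even separation was that of *Gabbr1*. Its log2 intensity had a lowest, median and highest value of 9.56, 9.84 and 10.03 on the 9 Tam-Idh1-KI arrays and of 9.79, 10.22 and 10.65 on the 9 control arrays. On the first day the Tam-Idh1-KI arrays ran from 9.56 to 10.03 and the controls from 10.09 to 10.65. On the second the 3 Tam-Idh1-KI arrays were at 9.63, 9.63 and 9.70 and the 3 controls at 9.79, 9.90 and 10.04. The groups did not overlap within either day, but did overlap across days, since the controls of the second day lay as low as the Tam-Idh1-KI arrays of the first. The mean was 9.79 ± 0.17 (SD, n = 9) against 10.20 ± 0.28 (SD, n = 9), a difference of -0.42 (SE 0.0855), or 0.748 times the control intensity. By day it was -0.48 and -0.26, and all 9 Tam-Idh1-KI arrays lay below the control mean of their day. Of all 18460 detected probes, 6 (0.0325%) separated in this way with Tam-Idh1-KI below control on both days, *Gabbr1* among them, a share that is read only as background because the gene was chosen on this contrast. In bulk SVZ, fewer cells that express a gene and less RNA per cell cannot be told apart.

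The separation came with normalization. Before it, the *Gabbr1* bead signals overlapped, at 696 to 1570 in Tam-Idh1-KI and 850 to 1400 in control mice, and the arrays differed in overall brightness. Array T7, the brightest of all at a mean signal of 905, had the highest *Gabbr1* signal of its group at 1573 and one of the lowest normalized values at 9.63. The other *Gabbr1* probe was detected on 0 of 18 arrays, with detection p-values from 0.0513 to 0.928, and gives no second reading of the gene.

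*Gabbr2* was dimly detected, with detection p-values of up to 0.0438, and showed a similar size of difference with more scatter. Its lowest, median and highest log2 intensities were 5.47, 5.57 and 6.32 in Tam-Idh1-KI and 5.62, 6.06 and 6.74 in control mice. The groups overlapped on the first day, where Tam-Idh1-KI array T6 at 6.32 was above 5 of the 6 controls. They did not overlap on the second, where the Tam-Idh1-KI arrays were at 5.54, 5.47 and 5.83 and the controls at 6.74, 5.92 and 6.40. The share of all probes that separated on the second day alone was not counted, so nothing is read from this separation. All Tam-Idh1-KI mice of that day were female, while its controls were of both sexes. The means were 5.69 ± 0.26 and 6.18 ± 0.37 (SD, n = 9 each), with a difference of -0.44 (SE 0.145), a ratio of 0.737, and 8 of 9 Tam-Idh1-KI arrays below the control mean of their day. Without background correction the same difference was -0.15.

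The DNA just before the annotated starts of *Gabbr1* and *Gabbr2* is shown because both genes had lower means. Windows of 250 bases before the start came from the RefSeq promoter table for GRCm38.p6, which held 7 of the 9 genes and not *Kctd16* or *Abat*. The *Gabbr1* window is chr17:37045716-37045965 on the plus strand, just before a gene that spans positions 37045966 to 37074305. The *Gabbr2* window is chr4:46991715-46991964 on the minus strand, and that gene spans positions 46662318 to 46991714. Capitals mark GGGCGG or its reverse complement CCGCCC, the core of the GC box bound by factors of the Sp family.
Gabbr1: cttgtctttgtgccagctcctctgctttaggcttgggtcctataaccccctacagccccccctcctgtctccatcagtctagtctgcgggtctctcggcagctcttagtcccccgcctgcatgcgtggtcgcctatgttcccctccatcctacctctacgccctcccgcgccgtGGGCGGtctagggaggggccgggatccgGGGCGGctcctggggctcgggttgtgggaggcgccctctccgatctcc
Gabbr2: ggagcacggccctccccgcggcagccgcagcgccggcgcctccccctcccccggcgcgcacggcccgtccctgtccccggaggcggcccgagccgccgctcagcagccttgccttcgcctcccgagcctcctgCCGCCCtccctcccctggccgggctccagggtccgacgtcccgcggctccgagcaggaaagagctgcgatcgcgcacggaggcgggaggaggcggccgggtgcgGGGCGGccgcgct
Each window held 2 GC boxes, at 48 and 76 bases before the *Gabbr1* start and at 13 and 117 bases before that of *Gabbr2*, counted from the first base of the motif as printed. At least 1 such motif, on either strand, was in 32.7% of all 32851 windows. Among the other members, the windows of *Kctd12*, *Slc6a11* and *Gad1* held 7, 3 and 1 GC boxes and 36, 25 and 17 CG pairs. Those of *Gad2* and *Slc32a1* held 0 GC boxes and 13 and 12 CG pairs. The *Gabbr1* and *Gabbr2* windows held 16 and 37 CG pairs, against a median of 6 over all windows, and were 66% and 81% G or C. The 8 letters of the cyclic AMP response element, TGACGTCA, were in neither window nor in those of *Kctd12*, *Gad1*, *Gad2*, *Slc32a1* and *Slc6a11*, and in 1.55% of all windows. *Gabbr1* is also known to start from an internal promoter that makes a shorter receptor, and which transcripts the probe reads was not checked.

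*Kctd12*, whose product binds the GABA-B receptor and speeds its desensitization, was read by a pair of probes that differed in what they showed. On the brighter, the lowest, median and highest log2 intensities were 9.19, 9.67 and 9.94 in Tam-Idh1-KI and 9.38, 9.91 and 10.30 in control mice. All 9 Tam-Idh1-KI arrays were below the control mean of their day. The groups overlapped on the first day and not on the second, a separation again without a counted share of all probes. The difference was -0.26 (SE 0.112). A single control array, C1 at 10.30, weighed on it, and without C1 the difference was -0.14. On the dimmer probe the values were 6.74, 7.24 and 8.45 against 6.34, 7.47 and 8.43, with a difference of 0.06 (SE 0.157) and 3 of 9 Tam-Idh1-KI arrays below the control mean. Both probes are annotated to the same transcript.

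**Figure D1:**
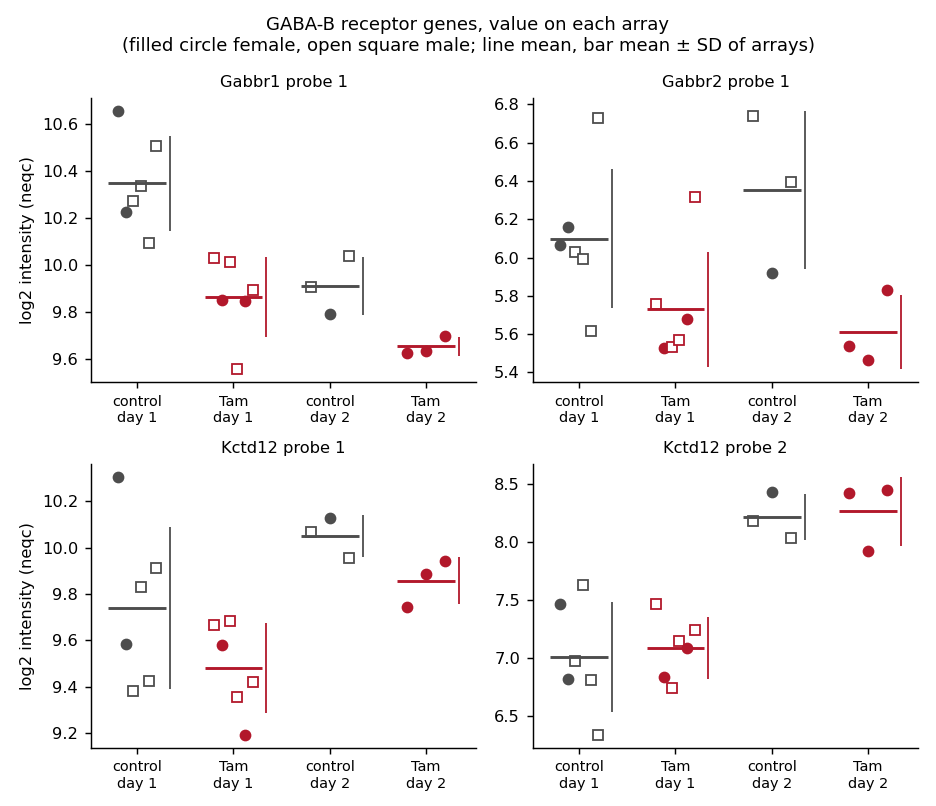
Log2 intensity of the Gabbr1, Gabbr2 and Kctd12 probes on each of the 18 arrays, by group and hybridisation day, with the mean as a line and the mean ± SD as a bar beside it. The Gabbr1 groups separate within each day, the Gabbr2 groups do so on the second day, and both Kctd12 probes are higher on the second day, the dimmer one by 1.17.

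The synthesis genes showed smaller differences. The brightest *Gad1* probe had lowest, median and highest log2 intensities of 12.95, 13.39 and 13.70 in Tam-Idh1-KI and 13.11, 13.44 and 13.71 in control mice, with a difference of -0.04 (SE 0.0895). A further probe of the same *Gad1* transcript gave -0.03 (SE 0.0848). The groups overlapped on both days for both probes, and 5 of 9 Tam-Idh1-KI arrays lay below the control mean of their day.

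A dimmer *Gad1* probe, annotated to the cDNA clone AK047521 and not to the main transcript, showed a different pattern. On the first day its 6 Tam-Idh1-KI arrays ran from 8.31 to 8.75 and its 6 controls from 7.76 to 8.40, a difference of means of 0.49. Second-day Tam-Idh1-KI arrays were at 8.47, 9.17 and 8.92 and the controls at 8.75, 8.98 and 9.05, a difference of -0.07. The groups overlapped on both days. Over both days the difference was 0.31 (SE 0.124), and 7 of 9 Tam-Idh1-KI arrays lay above the control mean of their day. The difference between the days was -0.62 (SE 0.243), with an unadjusted p of 0.0213 and an adjusted p of 1 over all probes in limma's interaction fit. The last *Gad1* probe, of another clone, was detected on 0 arrays.

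*Gad2*, which encodes the decarboxylase enriched at nerve endings, had values of 13.05, 13.28 and 13.65 in Tam-Idh1-KI and 13.08, 13.51 and 13.62 in control mice on its bright probe, with a difference of -0.16 (SE 0.0855). By day it was -0.19 and 0.00, and the difference between the days did not pass (0.11, SE 0.201, adjusted p = 1 in limma's interaction fit). The other *Gad2* probe, detected on 5 arrays of each group, had a difference of -0.08 (SE 0.14). *Slc32a1* values were 12.94, 13.72 and 14.00 in Tam-Idh1-KI and 13.53, 13.75 and 13.92 in control mice, with a difference of -0.06 (SE 0.104). Its spread was wider among the Tam-Idh1-KI arrays, with an SD of 0.33 against 0.12. T6 was the lowest array, and without it the difference was 0.04.

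Arrays T6 and T1 stood at opposite ends for these GABA neuron genes. Within the first-day Tam-Idh1-KI arrays, T6 was lowest and T1 highest for the bright *Gad1* probe at 12.95 and 13.70, for the bright *Gad2* probe at 13.05 and 13.65, and for *Slc32a1* at 12.94 and 13.96. T6 also held the lowest value of the brightest *Abat* probe in its group, 12.56. T6 had the highest mean log2 intensity of its group for the cortical projection neuron markers, 11.52, and for the pan-neuronal markers, 13.47, and the lowest for the striatal projection neuron markers, 11.36. T1 was at 7.25, 12.84 and 11.78 for the same lists. The mean of the interneuron markers *Pvalb*, *Sst*, *Npy*, *Vip*, *Calb2*, *Nos1* and *Chat* ran the other way from the synthesis genes. It was at 10.45 on T6 and at 9.66 on T1, the lowest of its group. The part of dissection in these values was not tested.

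*Slc6a11* had values of 8.38, 8.65 and 9.16 in Tam-Idh1-KI and 8.37, 8.94 and 9.50 in control mice. The difference was -0.23 (SE 0.124), at -0.19 and -0.26 by day. The second-day groups did not overlap, which, as for *Gabbr2*, has no counted share of all probes to set it against. Of the 9 Tam-Idh1-KI arrays 8 lay below the control mean of their day, and without C1, the highest control, the difference was -0.15. For *Abat* 3 probes of 1 transcript were detected, and a 4th was detected on only 2 arrays. The brightest had a difference of -0.04 (SE 0.063), the next of -0.17 (SE 0.0871) and the dimmest detected probe of -0.09 (SE 0.116). The middle probe had first-day and second-day differences of -0.27 and 0.12 (adjusted p = 1 for the difference between days in limma), and the groups overlapped on both days for all 3.

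**Figure D2:**
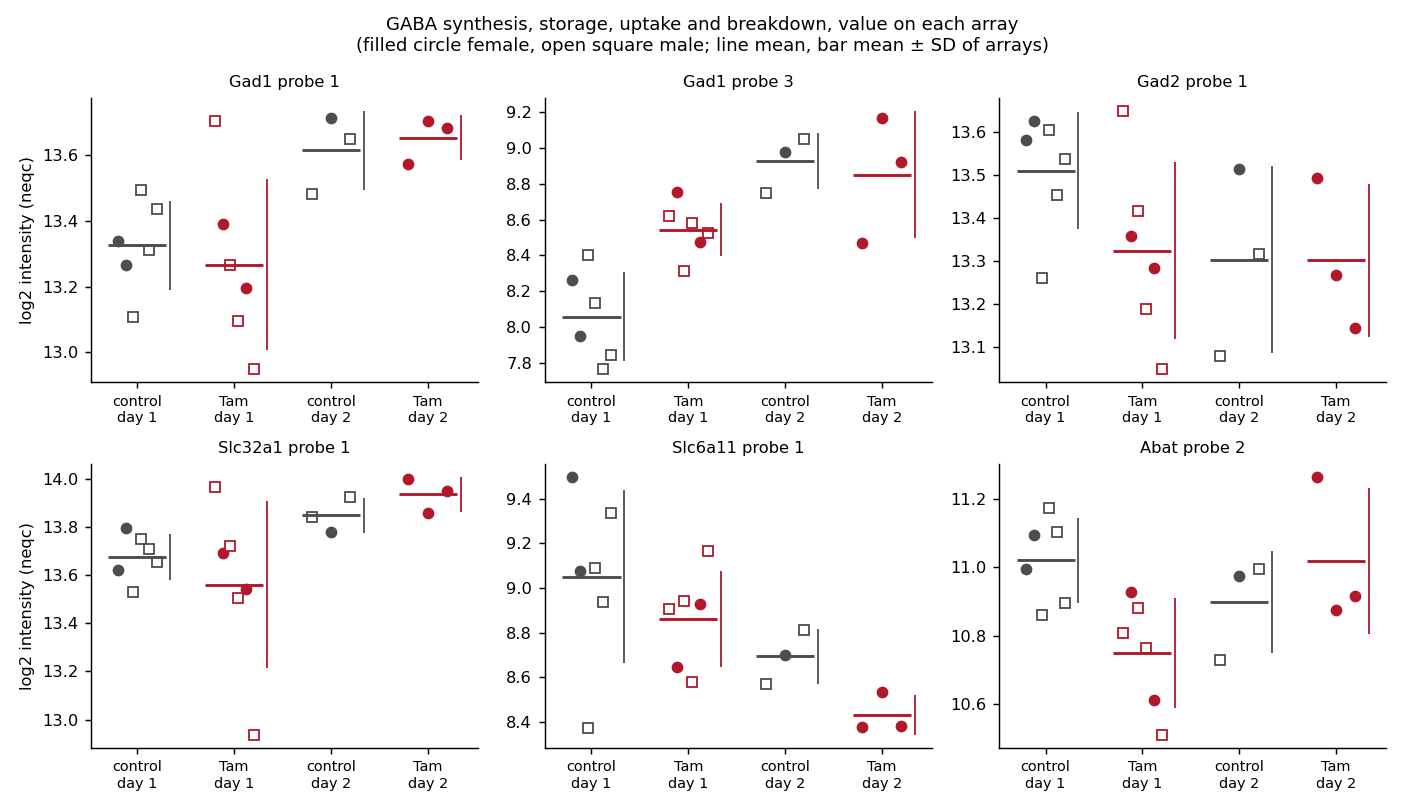
Log2 intensity of 6 probes of Gad1, Gad2, Slc32a1, Slc6a11 and Abat on each array, by group and hybridisation day, with the mean as a line and the mean ± SD as a bar beside it. The groups overlap for most probes, the Slc32a1 value of T6 lies at 12.94, and the group means of the dim Gad1 probe differ by 0.49 among first-day arrays and by -0.07 among second-day arrays.

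Across the 14 detected probes, 12 had a negative difference and 2 a positive one, while 48.9% of all 18460 probes were negative. This split changed with the scaling. When the arrays were scaled by their medians, 7 of the 14 were negative, and the median difference of all probes was then 0.105. On the second day alone 8 of the 14 were negative. The negative share of all probes was not counted under either setting, so the 48.9% is not their background. None of the 14 passed a Benjamini-Hochberg adjusted threshold of 0.05 in limma, against 18 of the 18460 probes (0.0975%), of which 8 were higher (0.0433%) and 10 lower (0.0542%). Of all probes 1691 had an unadjusted p under 0.05. With so low a background and members picked on this contrast, the count of 0 is a description. Probes of 1 gene are not separate genes, and the 12 negative values come from all 8 genes. With the replicate number as a block 9 of all probes were called.

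**Figure D3:**
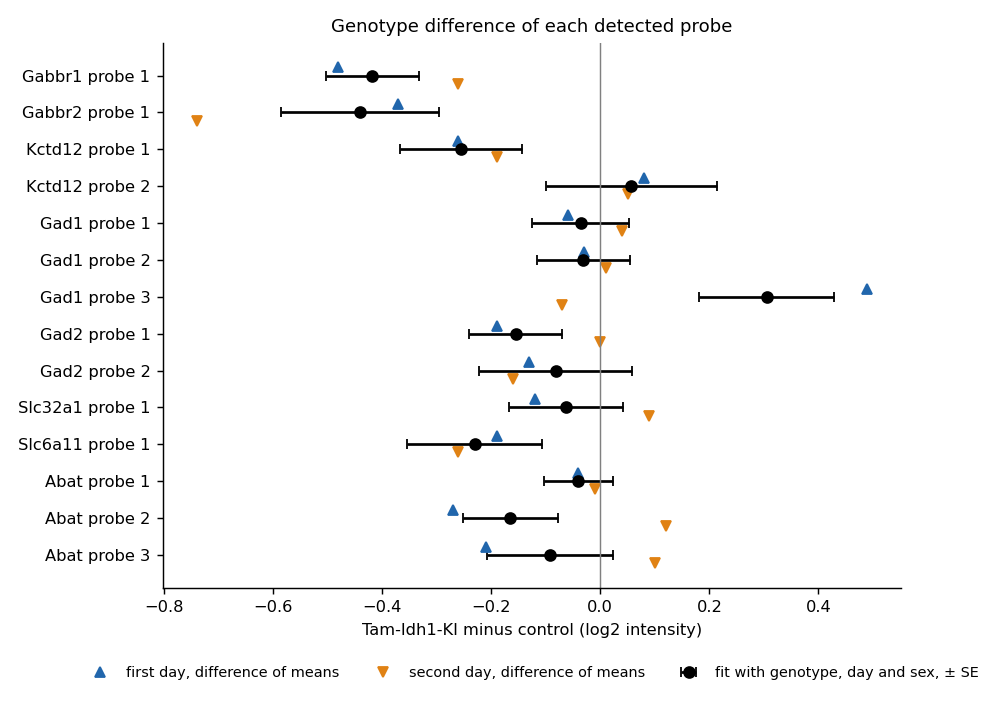
Difference of Tam-Idh1-KI minus control in log2 intensity for the 14 detected probes, with the fitted value and its standard error in black and the difference of group means on each day as triangles. Gabbr1 and Gabbr2 lie near -0.4, and the dim Gad1 probe is at 0.31 in the fit, with 0.49 and -0.07 by day.

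Hybridisation day had not been used to choose the genes. It went with a larger difference than genotype for some of the 14 probes and a smaller difference for others. For *Gabbr1* and *Gabbr2* the genotype differences were -0.42 and -0.44, and the day differences -0.34 and 0.15. For the dimmer *Kctd12* probe they were 0.06 and 1.17. Of the 14, 6 were higher and 4 lower on the second day at an adjusted p under 0.05, which is 10 of 14 against a background of 61.4% of all probes (31.5% higher and 29.9% lower). The members therefore moved with day about as often as the array as a whole.

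*Gabbr1* fell by 0.34 on the second day (SE 0.0932, limma adjusted p = 0.00596) in the fit over both groups, where the 12 first-day arrays had a mean of 10.10 and the 6 second-day arrays one of 9.78. *Slc6a11* also fell, by 0.42 (SE 0.135, adjusted p = 0.0134), as did the dim *Gad2* probe and the dimmest detected *Abat* probe. All 3 detected *Gad1* probes rose, by 0.32, 0.41 and 0.60, with limma adjusted p-values of 0.0105, 0.00147 and 0.00114, the first of which was 0.132 to 0.233 under 3 other normalizations. The brightest *Abat* probe rose by 0.33 (SE 0.0687, adjusted p = 0.00106), so that probes of 1 *Abat* transcript went opposite ways. The *Kctd12* probes both rose, but by 0.31 (adjusted p = 0.0367) and 1.17 (SE 0.172, adjusted p = 1.42e-05). The 12 first-day arrays of the dimmer one ran from 6.34 to 7.63 and the 6 second-day arrays from 7.92 to 8.45 without overlap.

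The day call of the brighter *Kctd12* probe was lost without any 1 of T5, T8, T9, C2, C7, C8 or C9, with differences of 0.25 to 0.33 and limma adjusted p-values of 0.0548 to 0.0904. With age in months added to the fit, 4 of the 10 calls were left, those of *Gabbr1*, the dimmer *Kctd12* probe, the dim *Gad1* probe and the brightest *Abat* probe. The other 6 kept their sign, most with little change in size. The 2 bright *Gad1* probes were at 0.29 and 0.38, *Slc6a11* at -0.35 and the dimmest detected *Abat* probe at -0.54, while the brighter *Kctd12* probe went from 0.31 to 0.20 and the dim *Gad2* probe from -0.55 to -0.36, with limma adjusted p-values of 0.0817 to 0.502. Age and day overlap in what they measure, so this fit does not separate them. How many of all probes kept a day call in this fit was not counted. The drop from 10 to 4 is therefore not read as particular to these genes.

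Sex gave no call. None of the 14 probes differed between 8 females and 10 males at an adjusted p under 0.05 in limma, and 0 had an unadjusted p under 0.05, against backgrounds of 3 probes (0.0163%) and 670 probes (3.63%). The coefficients ran from -0.25 (SE 0.148) for the dim *Gad2* probe to 0.14 (SE 0.0907) for the bright *Gad2* probe, and *Gabbr1* was at 0.05 (SE 0.0907). The second-day Tam-Idh1-KI mice were all female. Whether the genotype difference itself varied with day or sex was tested with interaction terms, and 0 of 18460 probes were called in limma for either, with 581 and 655 at an unadjusted p under 0.05. For *Gabbr1* the difference between days was 0.22 (SE 0.196, adjusted p = 1) and that between sexes was 0.03 (SE 0.196, adjusted p = 0.999).

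**Figure D4:**
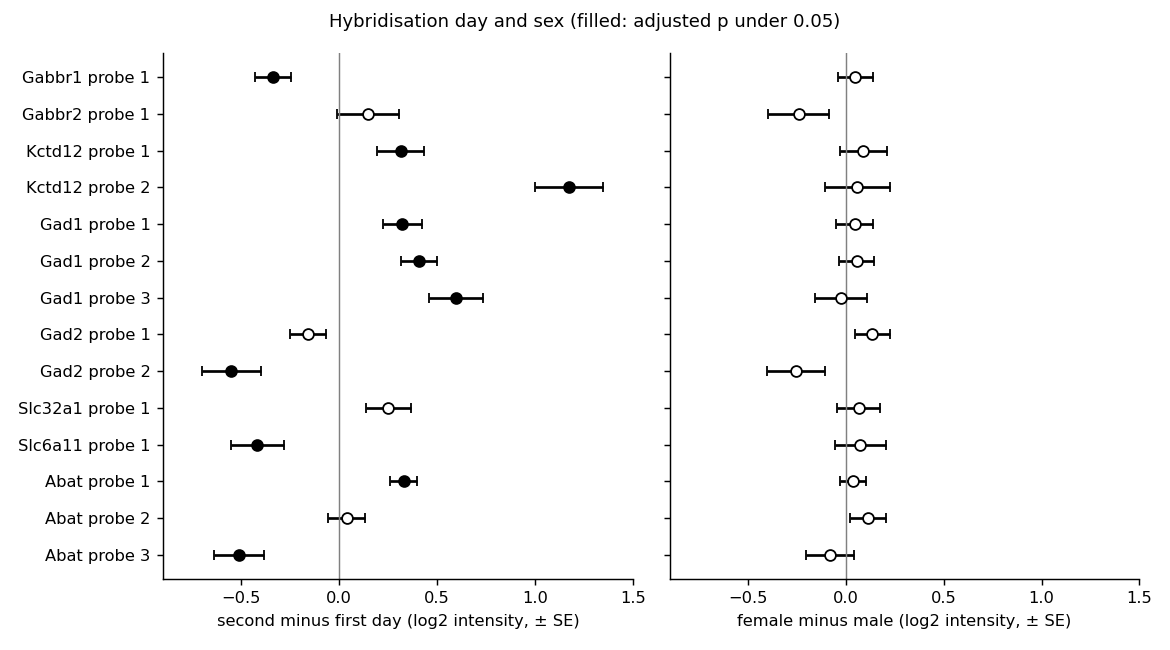
Coefficients of hybridisation day and of sex for the 14 detected probes, in log2 intensity with the standard error, filled where the adjusted p was under 0.05. Filled points mark 10 day coefficients and 0 sex coefficients, and the dimmer Kctd12 probe stands out at 1.17.

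Once genotype, day and sex had been removed, the arrays still varied together for some of these genes. Of 91 pairs of the 14 probes, 13 pairs of different genes had a Pearson r over 0.6 across the 18 arrays, and 12 of these joined *Gad1*, *Gad2*, *Slc32a1* and *Abat*. None of these pairs held the dim *Gad1* or the dim *Gad2* probe, which had r = 0.028 and 0.275 with the brightest probe of their own gene. The bright *Gad1* probe had r = 0.784 with *Gad2* (Spearman rho 0.622) and r = 0.754 with *Slc32a1* (rho 0.552). Without the 2 arrays farthest from the median these were 0.569 and 0.386, so both lean on those arrays. With the dimmest detected *Abat* probe r was 0.851 (rho 0.825, and 0.724 without those arrays). *Gabbr1* went most closely with the brighter *Kctd12* probe, at r = 0.701 (rho 0.713, and 0.645 without T4 and C1), and less so with *Gabbr2*, at r = 0.365 (rho 0.195). With the dimmer *Kctd12* probe its r was 0.056 (rho 0.04), so the likeness to *Kctd12* rests on 1 probe. The probes of 1 array share its tissue dissection and normalization, and these correlations are descriptions without a test.

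Over the 11464 other genes, each by its brightest detected probe, r with *Gabbr1* had a median of -0.085 and had its 5th and 95th percentiles at -0.551 and 0.487. The most alike were *Zfp423* at 0.843, *Xrcc4* at 0.818, *Kcnip2* and *Rapgef2* at 0.807 and *Zbtb7a* at 0.799. With genotype, day and sex left in, r was lower for all 5, at 0.319, 0.409, 0.701, 0.399 and 0.765 in the same order. Without T4 and C1 the first set ranged from 0.591 for *Zbtb7a* to 0.799 for *Kcnip2*, which encodes a potassium channel-interacting protein and had a rho of 0.87. The most opposed were *Atf6b* at -0.862, *Tusc1* at -0.859, *Crls1* at -0.85, and *Tonsl* and *Otulin* at -0.839 each. The genotype differences of these 10 genes ran from -0.27 (SE 0.147) for *Kcnip2* to 0.16 (SE 0.182) for *Tonsl*.

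A wider list of 62 GABA genes put these values in context. Of them 54 had a probe with 1 symbol and 41 were detected, and 0 of the 41 were called in either direction, against 0.0975% of all probes. Of the 41, 26 had a negative and 15 a positive difference, or 63.4% negative against 45.5% of all genes, with a median of -0.03 against 0.01. This split was counted under the main normalization alone. Whether it changes with the scaling, as that of the detected member probes did, was not tested.

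Among the GABA-A receptor subunits, which form the chloride channel opened by GABA, 5 of 6 detected were negative. *Gabrb1* had a difference of -0.22 (SE 0.0913) with 8 of 9 Tam-Idh1-KI arrays below the control mean, *Gabrg3* one of -0.19 (SE 0.151) and *Gabrg1* one of -0.19 (SE 0.185). Of 15 detected partners and effectors of the GABA-B receptor, 9 were negative. *Gnb1*, which encodes a G protein beta subunit, had the farthest difference of these at -0.30 (SE 0.0948), with 9 of 9 Tam-Idh1-KI arrays below the control mean of their day. *Gnao1*, the alpha subunit abundant in neurons, was at -0.19 (SE 0.137), and *Kctd12b* at 0.21 (SE 0.177).

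The chloride transporters had differences of opposite sign. *Slc12a5*, which lowers chloride in mature neurons and so lets GABA inhibit, had a difference of -0.24 (SE 0.139) with 9 of 9 Tam-Idh1-KI arrays below the control mean, and *Slc12a2*, which raises chloride in immature neurons, had one of 0.22 (SE 0.105) with 7 of 9 above. *Slc1a2*, the main astrocytic glutamate transporter, was at -0.22 (SE 0.0868), with *Slc38a2* at 0.17 (SE 0.115) and *Slc38a1* at -0.10 (SE 0.0842) among the 7 detected genes of glutamate and glutamine supply. *Dbi*, whose product binds the benzodiazepine site of GABA-A receptors, was at 0.18 (SE 0.0671) with 8 of 9 Tam-Idh1-KI arrays above the control mean, while *Gabarapl1* was at -0.11 (SE 0.0637) and *Shisa7* at -0.13 (SE 0.093). The other breakdown and transport genes lay near 0, with *Maob* at -0.09, *Aldh5a1*, which acts after *Abat*, at -0.02, and *Slc6a13* at 0.06.

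**Figure D5:**
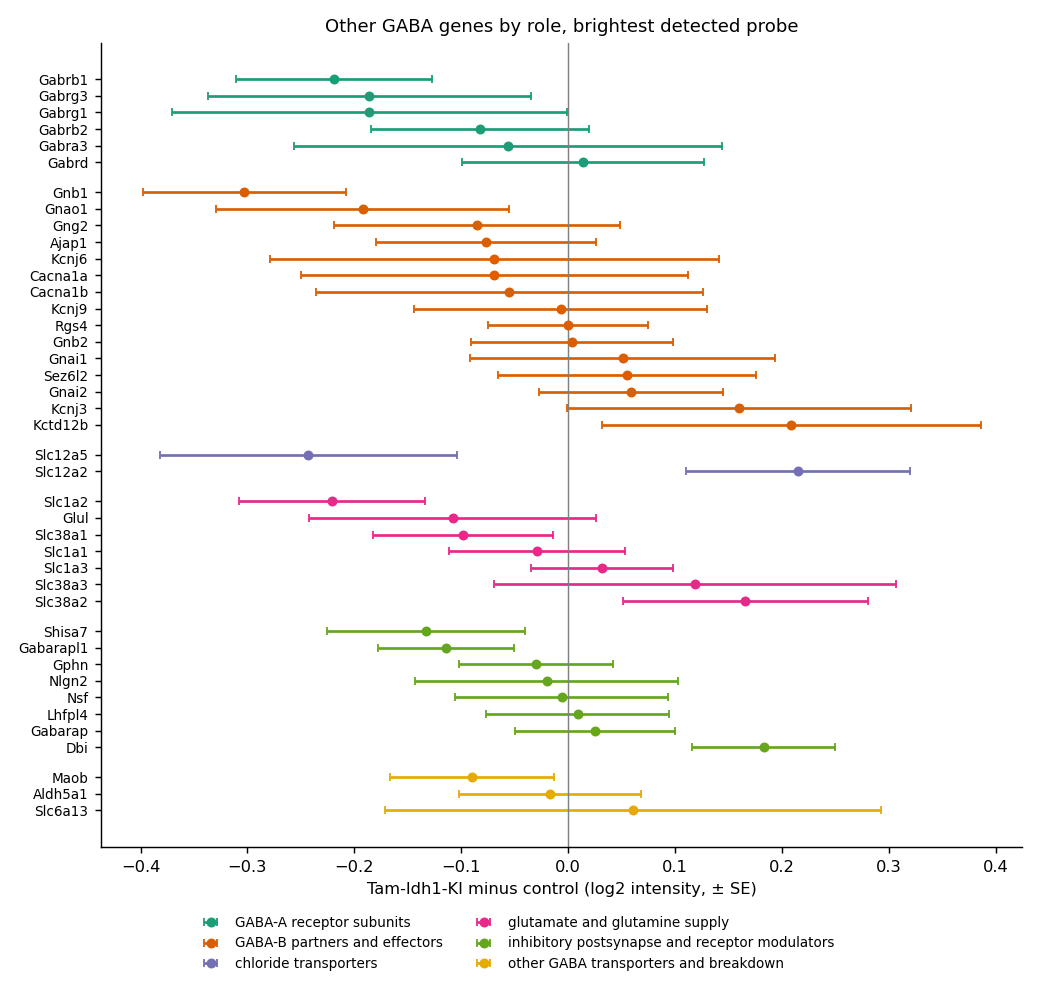
Difference of Tam-Idh1-KI minus control in log2 intensity, with its standard error, for the 41 detected genes of the wider GABA list, grouped by role. The values lie between -0.30 for Gnb1 and 0.22 for Slc12a2, and 0 genes were called.

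Markers of other cell types that SVZ tissue can hold also differed in level between arrays. The 3 detected cortical projection neuron markers had a median difference of -0.96, and their summed intensity ranged from 211 to 11200 in Tam-Idh1-KI and from 1020 to 5870 in control mice, with *Slc17a7* at -1.14 (SE 0.565). Of the 7 detected neuroblast markers 6 were positive, with a median of 0.25 and sums of 8250 to 14700 against 8850 to 11400, and *Dcx* at 0.63 (SE 0.167). Of the 5 detected ependymal markers 4 were positive, with a median of 0.31 and sums of 4560 to 12100 against 5150 to 9110. The negative ependymal marker, *Mia* at -0.64 (SE 0.167), was the farthest from 0 in that list. The 8 detected striatal markers had a median of -0.07, with sums of 31900 to 47000 against 35900 to 45800, and the 7 detected interneuron markers had one of 0.02 with sums of 12200 to 23100 against 12100 to 19000, although *Calb2* was at 0.78 (SE 0.225). The 8 astrocyte markers had a median of 0.01, with sums of 48500 to 74400 against 50000 to 64900. The 5 detected oligodendrocyte markers were all positive, with a median of 0.22 and sums of 17700 to 48200 against 13000 to 37400, as were the 4 microglial markers (median 0.11, 1770 to 3030 against 2060 to 2880) and the 3 endothelial markers (median 0.15, 3030 to 7350 against 2640 to 5680). Of the 4 detected choroid plexus markers 3 were negative, with a median of -0.11 and sums of 2110 to 8560 against 3280 to 6800. The positive choroid plexus marker, *Folr1* at 0.51 (SE 0.154), was the farthest from 0 in that list. The 4 detected pan-neuronal markers had a median of -0.08 and the 2 of oligodendrocyte progenitors one of -0.02. None of these marker genes was called in limma. The defining markers *Drd1*, *Drd2*, *Tac1* and *Penk* of the striatum and *Gfap*, *Dcx* and *Foxj1* of the SVZ and ependyma were all detected.

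The *Gabbr1* difference was -0.47 with the mean cortical marker level added to the fit and -0.38 with the striatal one, and that of *Gabbr2* was -0.33 and -0.47. With genotype, day and sex removed, *Gabbr1* had r = 0.57 with the mean of the striatal markers (rho 0.651), 0.575 with that of the choroid plexus markers (rho 0.575), -0.582 with the interneuron markers (rho -0.593) and -0.413 with the cortical markers (rho -0.507) over the 18 arrays. *Gabbr2* had r = -0.244 and 0.46 with the striatal and cortical markers. The cortical markers had their farthest r with the middle *Abat* probe at -0.838 (rho -0.709), *Slc32a1* at -0.798 (rho -0.699) and the bright *Gad2* probe at -0.792 (rho -0.676). With the dim *Gad1* probe and *Slc6a11* r was 0.22 and 0.107. Adding the cortical level took the difference of the middle *Abat* probe from -0.17 to -0.28. Only the cortical and the striatal level were added to a fit, and no level of another marker list was. The part of cell composition in the differences was not tested.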

How the data were processed

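SVZ RNA was measured on 18 Illumina Mouse WG6-v2 BeadChips, 1 per mouse. For each probe the authors deposited a bead signal, which is a linear intensity with the background left in, together with its detection p-value. The authors also deposited processed log2 values by a normalization that is not named. They follow the rank of the signal in each array (Spearman rho 1), have array medians of 6.22 to 6.30, and served as an alternative. The submitters' processing notes name GenomeStudio without a version. Background correction with the detection p-values, an offset of 16, quantile normalization and log2 used neqc of limma 3.58.1 in R 4.3.3. Probes with 1 symbol (34885, against 18 with several and 10378 with none) were kept where 9 or more arrays had a detection p under 0.05, giving 18460 probes of 11465 genes. limma (lmFit, eBayes) fitted genotype, hybridisation day and sex on all 18 arrays, with Benjamini-Hochberg adjustment over all kept probes and a threshold of 0.05. The fit was tested on simulated data with probe variances drawn from limma's fitted prior. An earlier simulation, which took the shrunken variances as the noise, gave more false calls than the nominal share and was replaced. The number of arrays limits the precision. The probes, lists, tests and alternatives were chosen with earlier results of these data known. All probes of the 9 genes were named, with the 5 genes most like and most unlike *Gabbr1* and up to 3 per role of the wider list by unadjusted p. Marker genes named in the text were picked with their values in view.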

Additional observations from a re-analysis of the deposited data

Results flagged for a closer look

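In 28 sets of 9 values, 1 per group for each of the 14 detected probes, 3 held an array far from the rest, where chance gives about 1 in 20. For *Gabbr2*, Tam-Idh1-KI array T6 was at 6.32, and the next highest at 5.83. For *Slc32a1*, the same array T6 was at 12.94, and the next lowest at 13.51. For the dim *Gad2* probe, control array C4 was at 6.24, and the next highest at 5.43. Without T6 the genotype difference of *Gabbr2* was -0.53 and that of *Slc32a1* was 0.04, and without C4 that of the dim *Gad2* probe was -0.001.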

How the results depend on the processing

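The *Gabbr1* difference was negative under all 34 settings, from -0.48 to -0.26, and with 1 array left out it ran from -0.46 to -0.35. Those of *Gabbr2* (-0.73 to -0.15), the brighter *Kctd12* probe (-0.31 to -0.13), the bright *Gad2* probe (-0.26 to -0.004), the dim *Gad2* probe (-0.16 to -0.001) and *Slc6a11* (-0.31 to -0.10) kept their sign too. The bright *Gad1* probes, *Slc32a1*, all 3 *Abat* probes and the dimmer *Kctd12* probe changed sign under at least 1 setting. The stricter detection filter left out *Gabbr2* and the dim *Gad2* probe. On the second day alone the middle *Abat* probe moved to 0.12 and the dim *Gad1* probe to -0.078. Median scaling moved the median of all probes by about 0.1, to 0.105, and under it *Gabbr1* was at -0.29 and the bright *Gad1* probe at 0.06. The study describes its controls as paired littermates, and the labels give the groups the same replicate numbers. Nothing in the labels says that a number marks a pair. Same-numbered arrays correlated over 0.1 in 9 of 9 pairs, but in 4 of 9 once day was removed, and 3 of 9 arrays correlated best with their own number, so the numbers were not taken as pairs. With the replicate number as a block, the *Gabbr1* difference was -0.44, that of *Gabbr2* -0.47, and 9 probes in all were called, none of them members.

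The count of called probes, 18, was 10 without the detection filter, 55 with array weights, 3 on the first day alone and 0 on the second, 9 with the cortical and 32 with the striatal marker level added (both chosen after seeing the data), 4 by the methods' t-test after Benjamini-Hochberg adjustment and 875 at its unadjusted threshold. With 1 array left out it ran from 5 to 28. It was 11, 6 and 9 without T2, T3 and T4, and 6, 7, 28, 11, 11 and 5 without C1, C2, C3, C4, C7 and C8. The count of members called between groups was 0 with each array left out and 1 without background correction, which is no support because the members were chosen on this contrast. The count called by day, 10, was 9 to 11 with 1 array left out and 4 with age added, where the count over all probes was not taken. By sex it was 0 under all 29 settings. The day call of the brighter *Kctd12* probe was also lost without the detection filter, and that of the bright *Gad1* probe was lost with the authors' log2 values, median scaling and cyclic loess. *Slc32a1* gained one in 4 settings and the bright *Gad2* probe in 2 (the authors' log2 values and cyclic loess). The cause of these changes was not tested. Dim probes such as *Gabbr2* and the second *Gad2* probe, near background, carry the least reliable sizes.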
